A study of Homo sapiens with 4 samples.

Results

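Very broad peaks were the widest stretches of H3K9me2, chosen by their width alone: a peak on chromosomes 1 to 22 was included when it spanned at least 10000 bp in any of the 4 deposited peak lists. The rule found 4359 of 980926 peaks, of which 1892 were in control 1, 1655 in control 2, 88 in CUX1 knockout 1 and 724 in CUX1 knockout 2. Width chose these peaks, so their widths and numbers are given as descriptions with no test. All 4 libraries came from K562, an established human myeloid leukemia line labelled as bone marrow. The control group carried CRISPR with a guide to HPRT, and the knockout group CRISPR with a guide to CUX1. Whether the cells were clones or pools, and how much CUX1 protein was left, is not stated by any label. The labels number 2 libraries in each group without saying that they were separate cultures. The p-values come only from how these 4 libraries can be divided, and the spread between them may be technical.

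H3K9me2 is the dimethyl form of lysine 9 on histone H3. It is written mainly by the partner enzymes EHMT2 (G9a) and EHMT1 (GLP) and removed by demethylases such as KDM3A. The mark is known for lying over long, mostly silent blocks of chromatin, many of them at the nuclear lamina, rather than at sharp sites. CUX1, a DNA-binding homeodomain protein, has its gene on chromosome 7 (long arm), in a region often deleted in myeloid disease. CUT&RUN uses an antibody to bring a nuclease to chromatin that carries the mark, and reads the fragments that it frees. A broad peak here is a stretch in which the authors' caller linked enriched positions that lay close together, so its width depends on both the mark and the linking.

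Very broad peaks were far more frequent in the control libraries. They held 22.6 Mb in control 1 and 19.5 Mb in control 2, against 0.973 Mb in knockout 1 and 8.39 Mb in knockout 2. Mean numbers were 1774 ± 168 for the controls and 406 ± 450 for the knockouts (SD, 2 libraries a group), a knockout to control ratio of 0.229. The groups did not overlap, but the knockouts differed by 8.23 times from each other, so the spread within that group exceeded its mean. Without knockout 1 the ratio was 0.408, and without knockout 2 it was 0.0496. Even in the controls these peaks were a small part of the mark, 3.31% and 2.91% of the bases under peaks, against 0.233% and 1.45% in the knockouts.

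No separate class of peaks began at 10000 bp. In control 1, 31046 peaks spanned at least 5000 bp, 1892 at least 10000 bp and 142 at least 15000 bp. The counts were 29500, 1655 and 104 in control 2, 19862, 724 and 32 in knockout 2, and 6630, 88 and 1 in knockout 1. On a log scale the number fell along a near straight line through the limit in each library, more steeply in knockout 1 than in the others. Just inside the limit, within 100 bp, lay 101, 86, 5 and 34 peaks of controls 1 and 2 and knockouts 1 and 2, and just outside it lay 93, 80, 7 and 56. The nearest widths were 10000 bp inside and 9999 bp outside, both in control 2.

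**Figure D1:**
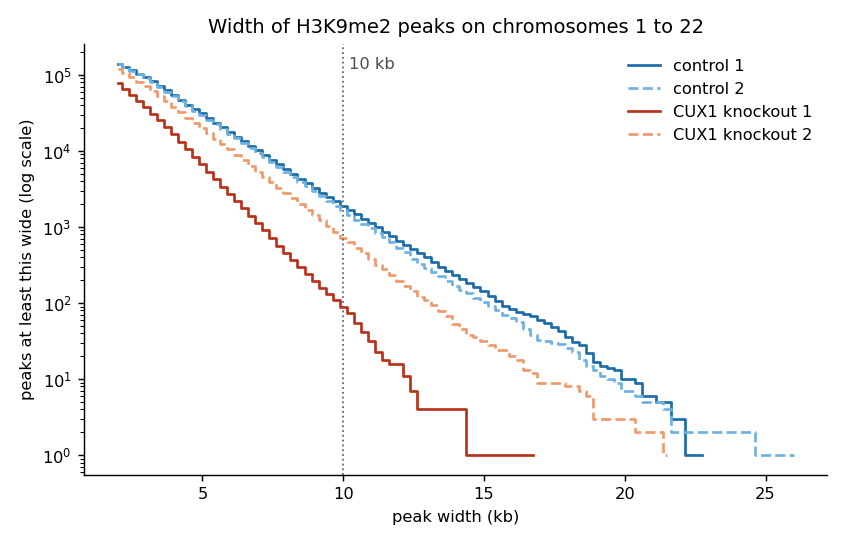
Number of peaks (log axis) at least as wide as the value on the horizontal axis (kb), for each of the 4 libraries on chromosomes 1 to 22, with the 10 kb limit dotted. The curves pass the limit without a step, at 1892 and 1655 peaks in the controls, 724 in knockout 2 and 88 in knockout 1.

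The widest peak of all was in control 2 on chromosome 3, from 14554692 to 14580887 (26196 bp). The widest of control 1 was on chromosome 7, from 32282649 to 32305577 (22929 bp), that of knockout 2 on chromosome 6, from 157168300 to 157189838 (21539 bp), and that of knockout 1 on chromosome 1, from 118553897 to 118570829 (16933 bp). Coordinates are hg19 and counted from 1. Typical members were only a little past the limit, with a median width of 11329 bp in control 1, 11264 bp in control 2, 10676 bp in knockout 1 and 11059 bp in knockout 2. At least 20000 bp were reached by 10 and 7 peaks of the controls and by 0 and 3 of the knockouts.

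Features of the lists moved with these counts. Neighbouring peaks lay at least 1452 and 1477 bp apart in the control lists, against 1056 and 1360 bp in the knockout lists, and the narrowest peaks were 362 and 369 bp against 263 and 339 bp. When every list was joined across gaps of up to 1477 bp, the control lists held 2121 and 1668 and the knockout lists 412 and 1201, a ratio of 0.426. With a limit set in units of each list's smallest width, they were 1186 and 926 against 493 and 663, a ratio of 0.547. The lists also ended at different strengths, and with 1 limit of 1.49 on −log10 p for all lists the numbers were 396 and 500 against 88 and 306. With 1 limit on −log10 q the groups overlapped, at 159 and 748 against 81 and 560. The knockout mean was lower in each of these settings, by different amounts.

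By fold enrichment and p, very broad peaks were slightly weaker than other peaks of their lists. Their median fold enrichment, the authors' value for each peak, was 1.72 in control 1, 1.68 in control 2, 1.85 in knockout 1 and 1.72 in knockout 2, below the 1.77, 1.72, 1.95 and 1.77 of all peaks of the same lists. Median −log10 p was likewise lower than in all peaks, 1.39 against 1.46 in control 1 and 1.56 against 1.67 in knockout 1. Median −log10 q was 0.0129 against 0.0141 for all peaks in control 1, 0.0311 against 0.0325 in control 2 and 0.0467 against 0.0472 in knockout 2, but higher than in all peaks in knockout 1, 0.0547 against 0.0453. A q of 0.05 was reached by 0 members, but also by only 0.00572% and 0.126% of all peaks of the controls and 0.00245% and 0.184% of those of the knockouts, so nothing about the members can be read from it. Fold enrichment was lower in each wider class of all 4 lists, in control 1 from a median of 1.79 under 2000 bp to 1.77, 1.74 and 1.72 in the 3 wider classes (2000 to 5000, 5000 to 10000 and at least 10000 bp).

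Very broad peaks were more frequent on arms where peaks of any width covered more sequence. No background library is known here, so this cover does not measure the mark alone. The 22 chromosomes were divided into 39 arms at their longest peak-free stretch. Among them the high-coordinate (long) arm of chromosome 1 held 1.08 and 1.15 very broad peaks per Mb in the controls, and both arms of chromosome 6 held 0.835 to 1.11. The sparse chromosome 13 held 0.0834 and 0.0522 per Mb and chromosome 14 held 0.149 and 0.0460. In knockout 2 the same arms were dense and sparse, with 0.51 per Mb on the long arm of chromosome 1, 0.529 on the short arm of chromosome 6, and 1 and 0 peaks on all of chromosomes 13 and 14.

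Density was compared with coverage measured in a different library, which the choice of members did not use. Over the 39 arms, very broad peaks of control 1 per Mb correlated with the percent of the arm covered in control 2 (Pearson r = 0.91), and those of control 2 with the percent covered in control 1 (r = 0.92). Across groups, the r of control 1 with knockout 1 and knockout 2 was 0.81 and 0.86. These are descriptions over arms, which share their library, its list length and their base composition. The 88 peaks of knockout 1 followed coverage more loosely (r = 0.51 with knockout 2), at 0 to 12 peaks an arm.

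**Figure D2:**
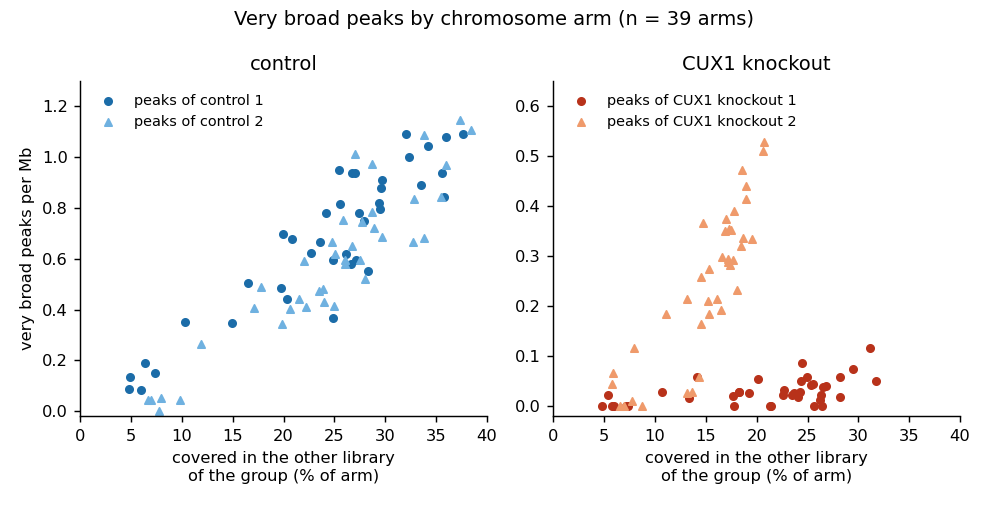
Very broad peaks per Mb (vertical axis) against the percent of the arm under peaks of any width in the other library of the same group (horizontal axis), for 39 chromosome arms, each point 1 arm of 1 library. The vertical scales of the control and knockout panels differ. Control arms range from 0 to 1.15 peaks per Mb, and arms with under 12% coverage hold at most 0.351.

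The same was seen in windows of 1 Mb. When the 2897 windows were ranked by coverage in control 1, the fifth with the most cover held 38.5% of the very broad peaks of control 2 and 33.7% of all bases under peaks of control 1. Those windows held 50.0% of the peaks of knockout 1 and 45.2% of those of knockout 2. The fifth with the least cover held 0.725% of the peaks of control 2, 0% of those of knockout 1 and 0.276% of those of knockout 2. Ranked by control 2, the fifth with the most cover held 35.7% of control 1 peaks and 33.4% of covered bases. Ranked by knockouts 1 and 2 it held 31.3% and 34.1% of control 1 peaks, and 31.3% and 33.4% of covered bases. There, control 1 peaks were thus nearly in proportion to covered bases.

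Arms with many very broad peaks in the controls did not all keep a like share in knockout 2. On the long arm of chromosome 9 there were 52 and 30 in the controls and 2 in knockout 2, although peaks of all widths still covered 17.7% of it there, against 20.7% and 20.0%. On the long arm of chromosome 20, from 29519749 to 62887644, there were 26 and 16 in the controls and 0 in both knockouts, and coverage was 23.9% and 24.1% against 6.53% and 7.18%. By contrast, the fall on the long arm of chromosome 7, which carries CUX1, was close to that of the whole lists. That arm held 91 of 1892 and 94 of 1655 in the controls, 4 of 88 in knockout 1 and 31 of 724 in knockout 2. Without chromosome 20 the knockout to control ratio in number was 0.232, so leaving that chromosome out changed it little.

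Few very broad peaks lay close to another. The median gap to the nearest other very broad peak was 372 kb in control 1 and 405 kb in control 2, where even spacing would give 1523 and 1741 kb between peaks. Random placement would also leave nearest gaps well below even spacing. Its value was not computed, so the size of any clustering is not known here. Another lay within 100 kb for 17.4% and 18.1% of them, for 7.18% in knockout 2 and for 0 of 88 in knockout 1. Such shares fall with the number of peaks in a list. Even spacing would be 3979 kb in knockout 2 and 32739 kb in knockout 1, so they do not compare clustering between libraries. Most 1-Mb windows held none (1634 and 1767 of 2897 in the controls), and at most 6 fell into 1 window. The windows with the most were on chromosome 8, from 125000001 to 126000000, with 6 and 2 for the controls against 0 and 1 for the knockouts, and on chromosome 1, from 177000001 to 178000000, with 6 and 2 against 0 and 0. Both held many very broad peaks in control 1 and few in control 2, but they were picked for the highest count summed over the controls. Among the next windows by this count, on chromosomes 1, 6, 1 and 11, controls 1 and 2 held 2 and 4, 5 and 1, 4 and 2, and 3 and 3.

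For the knockouts the richest window was on chromosome 7, from 43000001 to 44000000, with 1 and 4 of them against 2 and 1 for the controls. The next was on chromosome 3, from 39000001 to 40000000, with 0 and 4 against 1 and 2. The chromosome ends were not rich in them. The 2 Mb at each end of a chromosome held 1.80% and 1.27% of the very broad peaks of the controls, against 2.06% and 2.29% of all their peaks.

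A stretch that was very broad in 1 library was rarely very broad in another. Of the 1892 such peaks of control 1, 40 overlapped 1 of control 2, which is 2.11% of the former list and 2.42% of the latter. Between control 1 and knockout 2 the overlap was 29 peaks (1.53% and 4.01%), between control 2 and knockout 2 it was 21 (1.27% and 2.90%), and between the knockouts it was 0. Very broad peaks took up only 0.783% and 0.677% of chromosomes 1 to 22 in the controls, and 0.0338% and 0.291% in knockouts 1 and 2. The overlap that placement alone would give was not computed. These counts also depend on how many such peaks each list held, 88 and 724 in the knockouts. Merged over the libraries, the peaks formed 4266 stretches (50.8 Mb, 1.76% of chromosomes 1 to 22), and 97.8% of these were very broad in 1 library only. Both controls alone shared 39 stretches, 1 control and 1 knockout alone shared 52, the knockouts alone shared 0, and 1 stretch was shared by 3 libraries.

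That stretch was on chromosome 7, from 43842932 to 43871396. Control 1 had a peak of 19894 bp there, control 2 one of 10549 bp and knockout 2 one of 15335 bp, and 3286 bp were common to all 3. Knockout 1 covered 26.3% of the stretch with 5 separate peaks, the widest of 4089 bp. The other libraries covered 86.2%, 52.9% and 83.6% of it. The 3 wide peaks overlapped in part and had different edges.

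Most very broad peaks of a control were neither lost nor kept in the other libraries, but covered in part. Each was measured in the 3 libraries other than its own, so that no library was both the source and the measure. The very broad peaks of control 1 had 36.4% of their bases under peaks of any width in control 2, 20.8% in knockout 1 and 30.9% in knockout 2. Those of control 2 had 37.2% in control 1, 20.7% in knockout 1 and 32.2% in knockout 2. With 1 value per library, the mean was 36.8% ± 0.569 in the controls and 26.2% ± 7.63 in the knockouts (SD, n = 2 each), a difference of -10.7 points (two-sided exact permutation p = 0.333, the lowest that this design can give). Both knockouts lay below both controls, and without knockout 1 the difference was -5.28 points.

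A member was called lost where peaks covered under 10% of it, partial from 10% to under 50%, and kept from 50%. A kept member was whole where a single peak covered at least 50% of it, and otherwise fragmented. Of the 1892 very broad peaks of control 1, 187 were whole, 323 fragmented, 1148 partial and 234 lost in control 2. In knockout 2 the numbers were 115, 225, 1233 and 319, and in knockout 1 they were 32, 77, 1214 and 569. The 1655 of control 2 divided in nearly the same way, with 171, 284, 1005 and 195 in control 1 and 18, 74, 1023 and 540 in knockout 1. Partial cover was the commonest class in every pair.

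In the whole lists, the lost share was higher and the fragmented share lower in both knockouts than in both controls. The lost share of control peaks was 11.8% in control 1 and 12.4% in control 2, against 31.4% in knockout 1 and 16.4% in knockout 2, a difference of 11.8 points. The fragmented share was 17.2% and 17.1% against 4.27% and 12.5%, a difference of -8.71 points. For both shares the two-sided exact permutation p was 0.333 (n = 2 each), and without knockout 1 the differences were 4.30 and -4.58 points. With 1 limit on −log10 p for all lists the differences turned, to -15.5 points for the lost share and 1.13 for the fragmented share. With 1 limit on −log10 q they were -21.7 and 0.877 points. The limit on p left the knockout 1 list uncut and cut the control lists most. The whole share in the whole lists was 10.3% and 9.88% against 1.39% and 6.69%. Both the whole and the fragmented share fall when fewer peaks are kept, and few were kept in knockout 1. Of kept control 1 peaks alone, 63.3% were fragmented in control 2, and 70.6% and 66.2% in knockouts 1 and 2. Of kept control 2 peaks it was 62.4% in control 1, and 80.4% and 64.3% in knockouts 1 and 2. Among kept control peaks the fragmented part was thus not lower in the knockouts.

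Peaks of all widths gave the same order of libraries. Of all peaks of control 1, 42.2% were lost in control 2, 57.8% in knockout 1 and 46.6% in knockout 2, and of all peaks of control 2, 42.5% were lost in control 1, 58.1% in knockout 1 and 45.9% in knockout 2. Fragmented were 1.54%, 0.903% and 1.37% of the former and 1.66%, 0.914% and 1.3% of the latter. Peaks under 5000 bp make up most of each list and weigh most in these shares. Among control 1 peaks of 5000 to 10000 bp, 22.7%, 40.7% and 27.5% were lost, and 7.69%, 3.11% and 6.41% were fragmented.

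The same stretches held fewer peaks in the knockouts, not more. A very broad control peak overlapped 1.78 ± 0.0568 peaks in the other control and 1.57 ± 0.137 in a knockout (mean ± SD, n = 2 each; exact permutation p = 0.333). Control peaks that met none were counted in these means. Control 1 peaks met peaks with a median width of 2779 bp in control 2, 1654 bp in knockout 1 and 2353 bp in knockout 2. The gaps between such pieces had medians of 2912, 3171 and 3100 bp, well past the smallest gap of any list. Of these gaps, 24.9%, 30.6% and 23.1% were 2000 bp or shorter.

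**Figure D3:**
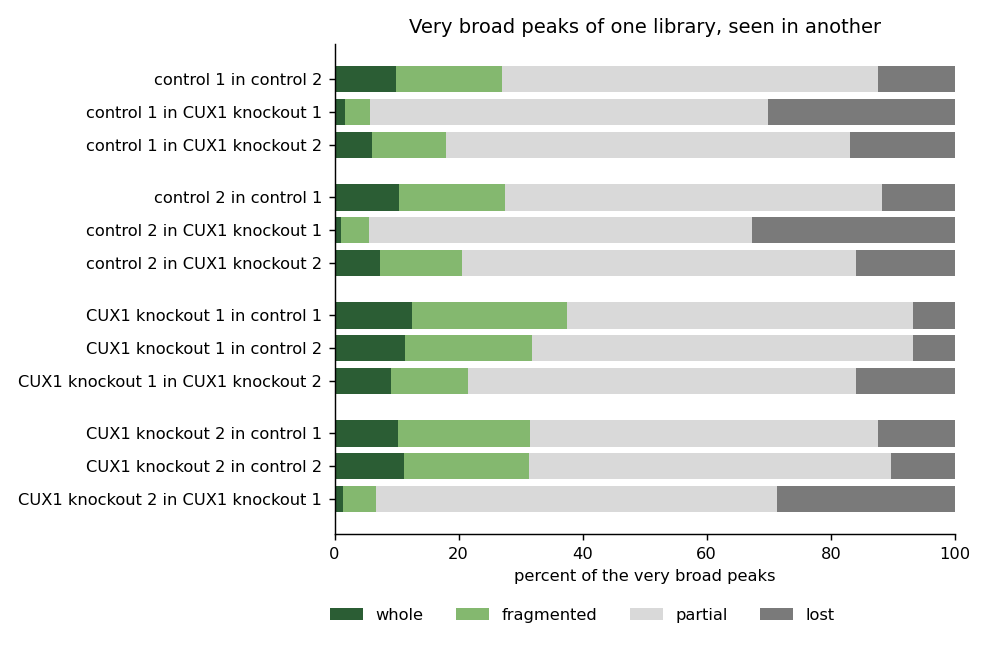
Share of the very broad peaks of each library (percent, horizontal axis) that were whole, fragmented, partial or lost in each of the other 3 libraries, 1 bar per pair of libraries. The lost share is largest in the bars measured in knockout 1 (28.6% to 32.6%), whichever library the peaks came from.

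Very broad peaks of the knockouts gave the mirror comparison. Those of knockout 1 had 39.4% and 40.3% of their bases covered in controls 1 and 2 and 33.4% in knockout 2. Those of knockout 2 had 38.9% and 38.6% covered in the controls and 21.97% in knockout 1. They were thus covered more densely in both controls than in the other knockout (39.3% ± 0.207 in the controls against 27.7% ± 8.07 in the knockouts, SD, n = 2 each; exact permutation p = 0.333). The lost share was 28.6% for knockout 2 peaks in knockout 1, and 12.4% and 10.4% in the controls, against 59.4%, 45.3% and 44.4% of all knockout 2 peaks. For knockout 1 peaks it was 6.82%, 6.82% and 15.9% in control 1, control 2 and knockout 2, against 52.5%, 52.7% and 55.7% of all its peaks. In the same order, 38.4%, 19.9% and 19.0% of knockout 2 peaks of 5000 to 10000 bp were lost. Of knockout 1 peaks of that width, 19.3%, 21.2% and 24.4% were lost. Fragmented were 22, 18 and 11 of the 88 peaks of knockout 1 (0.508%, 0.459% and 0.398% of all its peaks). Of the 724 of knockout 2, 154, 146 and 38 were fragmented in control 1, control 2 and knockout 1 (1.24%, 1.1% and 0.737% of all its peaks). At 5000 to 10000 bp these fragmented shares were 8.27%, 7.66% and 6.22% for knockout 1. For knockout 2 they were 8.91%, 7.98% and 3.53%. Over peaks from any other library, cover was 20.7% to 21.97% in knockout 1, 30.9% to 33.4% in knockout 2, 37.2% to 39.4% in control 1 and 36.4% to 40.3% in control 2.

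Cover of these stretches also tracked their surroundings. In the 500 kb on each side of control 1 peaks, control 2 covered 31.3%, knockout 1 18.5% and knockout 2 27.1%, so the wide peaks themselves stood 5.10, 2.33 and 3.85 points above their flanks. The ratio of peak to flank was 1.15 ± 0.0143 in the controls and 1.14 ± 0.0235 in the knockouts (SD, n = 2 each; exact permutation p = 0.667), a difference of -0.0157. This ratio was chosen after the data were seen. It lay between 1.11 and 1.19 in all 12 pairs of libraries, within a group or across groups. Against the whole of chromosomes 1 to 22, of which 23.7% and 23.3% lay under control peaks and 14.5% and 20.1% under knockout peaks, the ratio was larger, 1.57 ± 0.00504 in the controls and 1.501 ± 0.0940 in the knockouts (exact permutation p = 0.667).

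Profiles around the centre of the peaks showed the same small rise. Around control 1 peaks, mean coverage was 36.6% in the inner 10 kb and 32.2% beyond 40 kb in control 2, 20.7% and 19.0% in knockout 1, and 30.6% and 27.9% in knockout 2. In control 1 itself it was 100% and 32.4%, which the choice of peaks fixes. The step to full cover at the edges in the library of origin was thus set by that choice. Smaller steps lay near the same edges elsewhere. From 7.5 to 4.5 kb on the high-coordinate side of control 1 peaks, coverage rose from 28.2% to 36.3% in control 2. It rose there from 17.2% to 21.2% in knockout 1 and from 24.4% to 33.7% in knockout 2. In each, the value at 7.5 kb lay below the mean beyond 40 kb. These steps thus started from a dip and were larger than the rise over the outer mean. In the libraries other than the source, the inner mean was 1.58 to 4.83 points above the outer one over all 12 pairs.

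**Figure D4:**
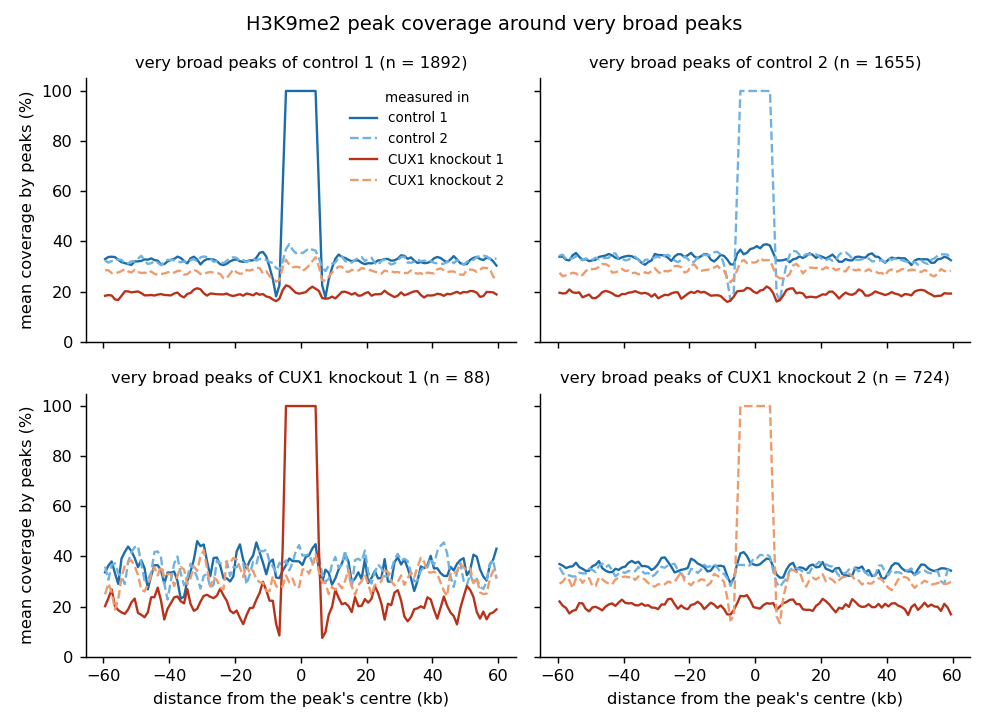
Mean percent of each 1 kb bin under peaks of any width (vertical axis) by distance from the centre of very broad peaks (kb), 1 panel for each library that supplied the peaks and 1 line for each library measured. Each source library reaches 100% at the centre because its own peaks were chosen, while in the other 3 libraries the mean of the inner 10 kb is 1.58 to 4.83 points over that beyond 40 kb, with single bins higher or lower.

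Pooled over bases, narrower peaks were covered to a like degree in the other control. In control 2, bases of control 1 peaks were covered to 35.1% under 2000 bp, 38.4% from 2000 to 5000 bp, 37.1% from 5000 to 10000 bp and 36.5% from 15000 bp. In the reverse direction the values were 35.1%, 38.9%, 38.4% and 38.2%. Counted per peak, a longer interval meets some peak more often by its length alone, so these values cannot be compared across widths. For control 1 peaks in control 2 the median percent covered was 0 under 2000 bp and 36.5 from 15000 bp. The share with no peak was 53.8% and 3.52%.

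The order of the libraries was counted peak by peak, beside the same count over all peaks of the list. Both knockouts lay below the other control in 933 of the 1892 very broad peaks of control 1 (49.3%), where all 244718 peaks of that list gave 33.9%. For control 2 the count was 833 of 1655 (50.3%), against 33.7% of all its peaks. Narrow peaks often had no cover in any other library, which leaves fewer of them with an order. Among peaks of 5000 to 10000 bp the shares with both knockouts below were 43.7% and 44.8%. Both knockouts lay above the other control in 17.7% and 18.7% of very broad peaks, against 13.2% and 13.3% of all peaks, and against 18.9% and 18.8% of peaks of 5000 to 10000 bp.

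For knockout 2 peaks, both controls lay above knockout 1 in 418 of 724 (57.7%), against 27.3% of all its peaks, and below it in 97 (13.4%), against 16.3%. For knockout 1 peaks the shares were 40.9% above (17.2% of all peaks) and 21.6% below (20.5% of all peaks) knockout 2. Knockout 2 peaks of 5000 to 10000 bp gave 48.4% above and 16.5% below, and knockout 1 peaks of that width 36.0% and 27.4%. With 1 limit on −log10 p, both knockouts were below the other control in 26.7% of the control peaks, and with 1 limit on −log10 q in 15.4%, against 49.8% in the whole lists. The share thus moved with where the lists were ended.

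Few single stretches had the pattern of a control domain absent from the knockouts. In 19 control 1 peaks and 17 control 2 peaks, 1.00% and 1.03% of each list, the other control covered at least 50% and both knockouts under 10%. Over all peaks the shares were larger, 8.11% and 8.19%, and among peaks of 5000 to 10000 bp they were 3.17% and 3.32%. The mirror pattern among knockout peaks, at least 50% in the other knockout and under 10% in both controls, was met by 0 of 88 and 0 of 724. It was met by 6.23% and 3.84% of all their peaks, and by 1.33% and 0.523% of those of 5000 to 10000 bp. Only 19 and 48 of the very broad knockout peaks had at least 50% covered in the other knockout, against 510 and 455 for the controls, so few could meet it. The opposite, under 10% in the other library of the group and at least 50% in both of the other group, was met by 1 and 3 control peaks, 1 of knockout 1 and 19 of knockout 2 (2.62%), against 2.17%, 2.18%, 5.36% and 8.08% of all peaks. The clearest case was on chromosome 18, from 35629866 to 35640197, where control 1 covered 98.0% of the control 2 peak in 1 piece, knockout 1 covered 8.04% and knockout 2 covered 0.232%. On chromosome 11, from 42685660 to 42696347, control 1 covered 79.3% of a control 2 peak in 1 piece, and the knockouts covered 4.18% and 0%. On chromosome 6, from 20320483 to 20330598, control 2 covered 80.01% of a control 1 peak in 2 pieces, and the knockouts covered 0% and 5.51%. On chromosome 15, from 68042459 to 68053111, the values were 73.3%, 0% and 0%. These regions were named for the size of this difference, so their values are a description.

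Other stretches were kept in all libraries, mostly in pieces. At least 50% was covered in all 3 other libraries for 12 peaks of control 1, 7 of control 2, 7 of knockout 1 and 9 of knockout 2, which is 0.634%, 0.423%, 7.95% and 1.24% of them, against 4.14%, 4.23%, 6.62% and 4.83% of all peaks. For peaks of 5000 to 10000 bp the shares were 2.29%, 2.45%, 7.03% and 3.20%. Such shares also depend on peak length. On chromosome 11, from 113426118 to 113441592, a control 1 peak of 15475 bp was covered to 64.9% by 3 pieces in control 2, 53.6% by 4 pieces in knockout 1 and 60.6% by 3 pieces in knockout 2. On chromosome 4, from 151243062 to 151255025, another was covered to 76.5%, 61.0% and 70.8% by 2 pieces in each. On chromosome 6, from 7274788 to 7286355, a control 2 peak was covered to 62.0% in control 1, 76.8% in knockout 1 and 60.7% in knockout 2. Here the peak was split in control 1 as it was in the knockouts.

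Knockout peaks with little cover in the controls were also found. Under 10% in both controls was seen for 2 of 88 peaks of knockout 1 and 15 of 724 of knockout 2 (2.27% and 2.07%), while under 10% in both knockouts was seen for 115 and 107 control peaks (6.08% and 6.47%). Over all peaks these shares were 33.3% and 25.6% for the knockouts and 30.5% and 30.1% for the controls. At 5000 to 10000 bp they were 6.57% and 5.63% for the knockouts and 12.9% and 11.9% for the controls. Such shares depend on the length of a peak. The widest of knockout 2 were on chromosome 2, from 1119292 to 1132505, with 4.39% and 0% in the controls, and on chromosome 12, from 60348240 to 60360903, with 0% and 7.64%. Knockout 1 covered 10.3% and 13.4% of them. Those of knockout 1 were on chromosome 3, from 165245350 to 165256059, with 0% in the other 3 libraries, and on chromosome 9, from 14317314 to 14327485, with 0% in both controls and 29.5% in knockout 2.

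**Figure D5:**
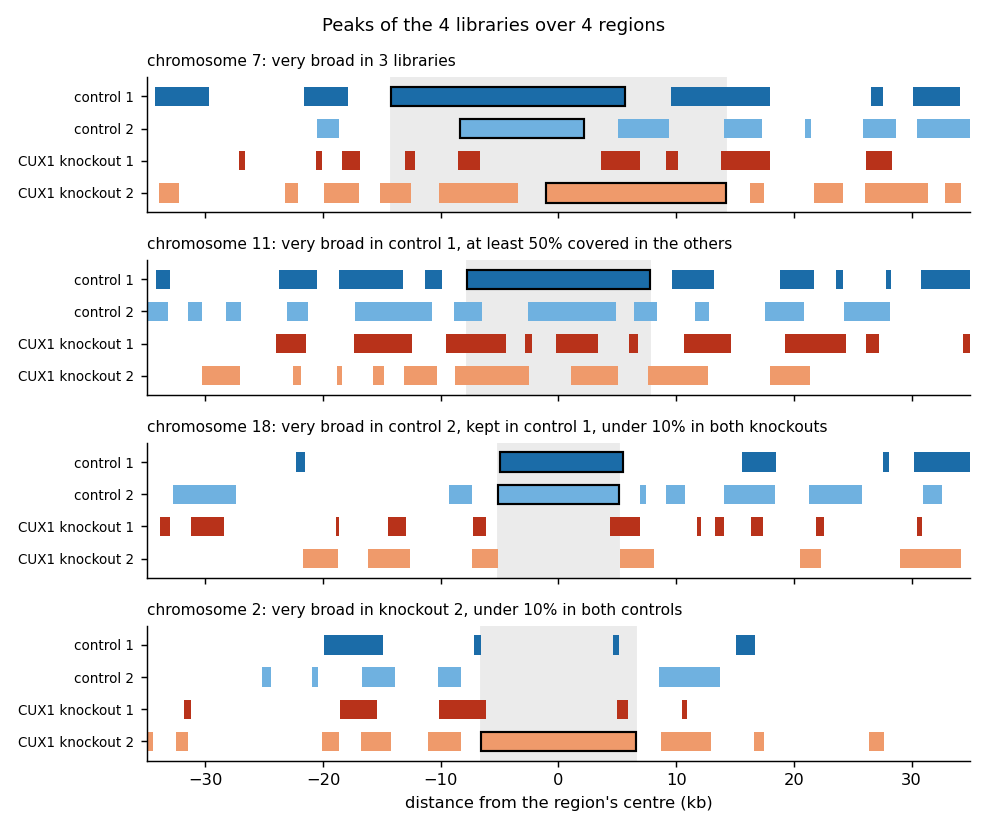
Peaks of the 4 libraries (bars, 1 row each) by distance from the centre of 4 regions (kb), with very broad peaks outlined in black and the region shaded. The panels show the chromosome 7 stretch shared by 3 libraries, a chromosome 11 peak covered at 53.6% or more elsewhere, the chromosome 18 peak at 8.04% and 0.232% in the knockouts, and the chromosome 2 peak of knockout 2 at 4.39% and 0% in the controls.

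The widest peaks showed the same mixture. The 26196-bp peak of control 2 on chromosome 3 was covered to 59.9% in control 1, 22.8% in knockout 1 and 64.1% in knockout 2, by 3 pieces in each. The 24731-bp peak of control 2 on chromosome 9, from 120187693 to 120212423, was covered to 7.93% in control 1 and to 29.0% in knockout 2, so the other control covered under 10% of it. The 22204-bp peak of control 1 on chromosome 5, from 146266903 to 146289106, was covered to 61.5% in control 2, 60.8% in knockout 2 and 3.02% in knockout 1. Of the 21539-bp peak of knockout 2 on chromosome 6, the other libraries covered 12.4%, 16.05% and 13.4%.

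On the long arm of chromosome 20, control peaks had less cover in the knockouts than over all chromosomes. The 26 of control 1 had 35.9% of their bases covered in control 2, 9.64% in knockout 1 and 11.4% in knockout 2, and the 16 of control 2 had 33.3%, 10.5% and 17.9%. Lost were 18 and 11 of the 26, and 11 and 6 of the 16, in knockouts 1 and 2, against 4 and 3 in the other control.

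A lost stretch need not have lacked any called peak. Every list ended at 250000 peaks, and the numbers that end the peak names skip values. The skips are read here as peaks called but left off the list, a reading that no source used here states. For control 1 peaks with no listed peak at all, 136 in control 2, 284 in knockout 1 and 152 in knockout 2, at least 1 number was skipped between the listed peaks on either side in 97.1%, 96.5% and 94.7% of cases. For control 2 peaks it was 99.02%, 96.0% and 97.5% in control 1, knockout 1 and knockout 2. These stretches had medians of 22.9 to 26.4 kb. Over all peak-free stretches of 20 to 30 kb in the same lists, numbers were skipped in 98.9%, 93.0%, 87.9% and 84.4% (controls 1 and 2, knockouts 1 and 2). The skipped peaks may lie outside the member, so the lists could not tell a lost domain from one whose peaks fell below the end of the list.

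The direction of the coverage difference also depended on that end. A limit of −log10 p at the end of the knockout 1 list left that list uncut and cut the control lists most. With 1 limit of −log10 p for all lists, control peaks were covered to 17.2% and 19.1% in the other control and to 22.3% and 21.1% in knockouts 1 and 2, a difference of 3.51 points in the other direction (exact permutation p = 0.333, n = 2 each). With 1 limit of −log10 q the values were 8.24% and 23.4% against 17.2% and 27.0%, and the groups overlapped. How deeply each library was sequenced is unknown here, and with it the precision of these values.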

How the data were processed

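The submitters' processing notes name hg19 as build and, as tools, MACS2 2.1.0, BWA 0.7.17, deepTools 3.5.1 and SAMtools 1.16.1. No source used here gives the caller's settings, a background library or read depth. For each library the authors deposited broad peaks, 250000 in number. Peak names carry a tag "sub54" in control 1 alone and "cux1kd" in the knockouts, whose meaning is not stated. Each deposited peak carries a position, a score (within 1 of 10 times −log10 p), a fold enrichment, and −log10 of p and q, used here only to describe or filter peaks within lists.

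No peak passed an hg19 chromosome end (0 chromosomes), while 14 chromosomes had one past the hg38 end (lengths from GenomeInfoDb 1.38.1). No gene table or sequence of build hg19 was used here, so regions are given by position.

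Computed here (Python 3.11.15, NumPy 2.4.6, pandas 2.3.3, SciPy 1.17.1): members by width, percent of their bases under peaks of each other library, number of pieces, classes, and 1-Mb windows. Arms were split at each chromosome's longest stretch without peaks (2000000 bp or more) and used if 5000000 bp or longer. Groups were tested by exact permutation of libraries, two-sided. The interval functions were tested on simulated data. Regions named were the 3 widest members per library (of which some are printed), the stretch shared by most libraries, the richest windows, and the members with the largest fall, widest kept and widest knockout-only, 2 per list. Members and rules were chosen with earlier results of these data known.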

Additional observations from a re-analysis of the deposited data

How the results depend on the processing

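The ratio of knockout to control means was below 1 under all 13 alternatives for the number and for the megabases of very broad peaks, from 0.0496 to 0.707 and from 0.0463 to 0.693. It was 0.547 in number with a limit in units of the smallest width, and with 1 limit of −log10 q it was 0.707 in number and 0.693 in megabases. With 1 limit of −log10 p, the difference knockout minus control was 3.51 points for the coverage of control peaks, -15.5 for their lost share and 1.13 for their fragmented share, all opposite to the whole lists. With 1 limit of −log10 q these were 6.26, -21.7 and 0.877, and coverage of knockout peaks differed by 4.30 points. The limit on p left the knockout 1 list uncut, and the cause of these turns was not tested. The share of control peaks with both knockouts below the other control was 26.7% and 15.4% with these limits. The ratio to flanks differed by 0.00939 with the first limit, 0.0256 with the second and 0.000951 without knockout replicate 1, against -0.0157 in the whole lists.

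Leaving out 1 library gave ratios of 0.0496 (without knockout 2) to 0.408 (without knockout 1) in number and 0.0463 to 0.399 in megabases. The lowest ratios of any setting came without knockout 2, and the highest, 0.707 and 0.693, with 1 limit of −log10 q. With 1 library left out, differences were -16.1 to -5.28 points in coverage of control peaks and -11.8 to -11.5 in coverage of knockout peaks. They were 4.30 to 19.3 in the lost share, -12.8 to -4.58 in the fragmented share and -0.0323 to 0.000951 in the ratio to flanks. Without 1 control, coverage of control peaks has no value for a second control, so it was not computed, and likewise for knockout peaks without 1 knockout. Libraries with the same replicate number share only that number. Their deviations from the group means in 2684 windows of 1 Mb correlated at 0.155. With a replicate block the ratio in number was 0.242 and that in megabases 0.236, and the differences in coverage and class shares were the same by construction, with an exact p of 0.5, the smallest 2 pairs allow. No class limit tried changed a direction.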

Other observations

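Outside chromosomes 1 to 22, very broad peaks were found only on X, with 24 in control 1, 2 in control 2 and 0 in both knockouts, and 0 on Y or the mitochondrial genome in any list. Per Mb, X held 0.155 and 0.0129 in the controls, against 0.657 and 0.574 on chromosomes 1 to 22.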
